A study of Mus musculus with 60 samples.

Results

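The genes described here are 10 parts of the hepatic drug-metabolizing system. They are the cytochrome P450 enzymes Cyp2c29, Cyp2c55, Cyp2c70, Cyp3a11, Cyp3a13 and Cyp3a25, their electron donor Por, and the xenobiotic sensors Nr1i2, Nr1i3 and Ahr. They were chosen by gene symbol, and all 10 were found once in each of the liver tables, among 54343 rows per table.

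Cytochromes P450 of the Cyp2c and Cyp3a families sit in the endoplasmic reticulum of hepatocytes and oxidize drugs, steroids, fatty acids and bile acids. Each needs electrons from NADPH, which the reductase encoded by Por passes to it. The nuclear receptors PXR (Nr1i2) and CAR (Nr1i3), partnered by RXR, bind foreign and endogenous chemicals and drive transcription of these enzymes. The aryl hydrocarbon receptor (Ahr), partnered by ARNT, also binds such chemicals, and its known hepatic targets include another cytochrome, Cyp1a2.

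Liver was taken from diet-induced obese (DIO) mice of 2 lines. The Glp1r line had 3 groups of 5 mice: floxed Glp1rfl/fl mice given vehicle, Glp1rfl/fl mice given mGIPR-Ab/P1, and Glp1rWnt1-/- mice given vehicle. The Gipr line had the same layout, with Giprfl/fl mice given vehicle, Giprfl/fl mice given mGIPR-Ab/P1, and GiprSyn-/- mice given vehicle. In mGIPR-Ab/P1, called the conjugate here, a peptide acting on the GLP-1 receptor is joined to a GIPR antibody. The labels name the knockouts by Wnt1 and Syn only and do not state the Cre strains, the dose, the duration, or the age and sex of the mice. No knockout mouse received the conjugate in these data, so the knockout groups show the liver of untreated knockouts, not a blocked response. The labels call the libraries biological replicates. Both comparisons of a line used the same 5 vehicle libraries.

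RNA was measured as FPKM, fragments per kilobase of transcript scaled to the library's mapped total, so that levels of different genes can be set beside each other per length. Depth is not given in the tables. It was estimated from the FPKM that 1 fragment is worth, and lay between 31.8 and 57.4 M fragments, where M stands for mega. In Glp1rfl/fl mice given the conjugate it was 34.1 ± 1.59 M (SD, n = 5), against 50.02 ± 2.94 M with vehicle, with no overlap (exact permutation test, two-sided p = 0.00794, the smallest that 5 against 5 allow, and 0.0635 adjusted over 48 comparisons). Liver identity held in all 30 libraries: the 6 hepatocyte markers summed to between 36661 and 60804 FPKM. Glp1r did not exceed 0.356 FPKM in any liver library, and Gipr did not exceed 0.0149 FPKM, so the liver RNA does not check the deletions. Transcripts of 10 exocrine pancreas genes summed to at most 0.208 FPKM in the Glp1r line, but to between 0.311 and 8061 FPKM in the Gipr line, with a wide range in each of its groups. The score of the erythrocyte markers, a mean of log2(FPKM + 1), passed no adjusted test against vehicle. It differed by -0.880 and -0.992 with the conjugate in the Glp1r and Gipr lines (exact permutation test, adjusted p = 0.0635 and 0.104). The difference was -0.619 in the Syn knockout (adjusted p = 0.0635) and 0.126 in the Wnt1 knockout (adjusted p = 0.866). Scores with the conjugate in the Glp1r line, 6.23 to 6.97, lay wholly below vehicle, 7.10 to 7.68. Those of the Syn knockout, 6.59 to 7.03, lay wholly below their vehicle, 7.22 to 7.75. For both the exact permutation p was 0.00794, the smallest possible, so an adjusted p of 0.0635 does not mean that these groups overlapped. The erythrocyte sum was 1016 to 1522 FPKM in Glp1rfl/fl vehicle, 475 to 889 with the conjugate and 639 to 3136 in Glp1rWnt1-/- livers. It was 993 to 1678 FPKM in Giprfl/fl vehicle, 406 to 1170 with the conjugate and 634 to 859 in GiprSyn-/- livers. The 4 globin genes on this list were lower on average with the conjugate in both lines, while Alas2, the erythroid enzyme of heme synthesis, averaged 36.8 FPKM with vehicle and 37.3 with the conjugate in the Glp1r line. In the Gipr line Alas2 averaged 51.5 FPKM with vehicle and 43.0 with the conjugate, lower like the globins. GiprSyn-/- replicate 5 stood apart in macrophage markers, at 437 FPKM against 74.5 to 87.6 FPKM in the rest of its group, and was the highest of its group in endothelial markers, at 62.9 FPKM. Without it the Cyp2c70 and Cyp3a11 calls in the Syn knockout remained. The cholangiocyte sum was 27.6 to 65.9 FPKM in Giprfl/fl vehicle, 19.5 to 31.5 with the conjugate and 21.8 to 27.8 in GiprSyn-/- livers, and 32.1 to 78.6, 11.7 to 34.4 and 12.3 to 55.1 FPKM in the same order of groups in the Glp1r line. The part of these markers in the results was not tested, apart from the fits with an erythrocyte or pancreas term given below. With the conjugate in the Gipr line only replicate 5, at 7.35, reached the vehicle range of the erythrocyte score. There, and where the score did not overlap vehicle, group and erythrocyte score can hardly be told apart in such fits. The hepatocyte marker score, a mean of log2(FPKM + 1), was higher than vehicle by 0.251 with the conjugate in the Glp1r line (exact permutation p = 0.0317, adjusted p = 0.117). It was higher by 0.280 with the conjugate and by 0.260 in the Syn knockout in the Gipr line (exact permutation p = 0.00794 and adjusted p = 0.0635 for each). The markers did not move together in the Syn knockout. There Serpina1c, Cps1, Apoa1 and Fgb averaged higher than vehicle. Alb went from 32921 to 26363 FPKM and Ttr from 4945 to 4231. The hepatocyte sum was 42237 to 53380 FPKM in Giprfl/fl vehicle and 40285 to 47310 in GiprSyn-/- livers. In whole liver, fewer cells of a type and less RNA per cell cannot be told apart.

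The promoters of 4 of the enzymes are shown because 3 of these genes (Cyp2c70, Cyp3a11 and Cyp3a25) passed the test in at least 1 comparison, while Cyp2c29, another Cyp2c gene of the same chromosome, did not. They are RefSeq sequences of build GRCm38.p6, from 250 bases before to 50 bases after the annotated start, written 5′ to 3′ on the gene's strand. Capitals mark AGGTCA or AGTTCA, the hexamer cores bound by nuclear receptors such as PXR and CAR, read on either strand, so that a minus-strand copy appears as TGACCT or TGAACT.

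Cyp2c70 (chr19:40187237-40187536, minus strand): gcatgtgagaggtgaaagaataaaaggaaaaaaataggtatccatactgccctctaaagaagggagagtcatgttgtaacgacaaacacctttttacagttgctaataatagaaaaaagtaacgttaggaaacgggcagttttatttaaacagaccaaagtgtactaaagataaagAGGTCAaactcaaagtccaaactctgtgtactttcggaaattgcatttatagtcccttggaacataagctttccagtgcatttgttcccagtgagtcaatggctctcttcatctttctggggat
Cyp2c29 (chr19:39286835-39287134, plus strand): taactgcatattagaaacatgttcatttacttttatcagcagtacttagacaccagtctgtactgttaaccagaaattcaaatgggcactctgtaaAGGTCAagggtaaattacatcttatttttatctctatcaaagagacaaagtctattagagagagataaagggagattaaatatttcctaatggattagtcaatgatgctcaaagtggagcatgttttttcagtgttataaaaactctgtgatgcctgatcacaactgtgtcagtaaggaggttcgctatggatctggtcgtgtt
Cyp3a11 (chr5:145879805-145880104, minus strand): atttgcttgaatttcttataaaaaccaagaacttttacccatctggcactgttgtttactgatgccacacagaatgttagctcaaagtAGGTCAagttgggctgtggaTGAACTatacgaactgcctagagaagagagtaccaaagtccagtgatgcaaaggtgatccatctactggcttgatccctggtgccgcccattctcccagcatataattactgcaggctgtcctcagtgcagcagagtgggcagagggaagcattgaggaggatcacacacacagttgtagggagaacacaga
Cyp3a25 (chr5:146009569-146009868, minus strand): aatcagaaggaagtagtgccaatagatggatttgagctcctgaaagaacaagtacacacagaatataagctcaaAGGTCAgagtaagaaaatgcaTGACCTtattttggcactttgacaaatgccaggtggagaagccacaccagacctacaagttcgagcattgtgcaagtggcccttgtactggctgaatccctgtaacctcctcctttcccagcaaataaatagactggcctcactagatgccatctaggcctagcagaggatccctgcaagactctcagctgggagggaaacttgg

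All 4 windows held AGGTCA, which 16.3% of 32851 RefSeq promoters of 300 bases hold on either strand. Cyp2c70 had 1 copy that begins 74 bases before the start, and Cyp2c29 had 1 copy at 154 bases before it. Cyp3a11 had AGGTCA at 162 bases before the start and, at 142 bases before it, AGTTCA on the minus strand, a hexamer that 14% of promoters hold. Cyp3a25 had AGGTCA on the plus strand at 176 bases and on the minus strand at 155 bases before the start. The windows of Cyp2c55, Cyp3a13, Nr1i2 and Nr1i3 held none of these hexamers and no GCGTG, the core of the AHR response element. Por held 3 copies of GCGTG, a pentamer that 32.4% of promoters hold, and the table had no promoter for Ahr. A match describes these letters only, and it shows no binding and no cause.

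Abundance spanned the family widely. With vehicle in the Glp1r line, Cyp3a11 was highest at 377 ± 35.1 FPKM (SD, n = 5), above Cyp2c29 at 264 ± 23.1 and Cyp3a25 at 237 ± 15.1. Cyp2c70 was sixth of the 10 genes at 81.9 ± 7.69 FPKM, and Ahr and Cyp2c55 were last at 6.73 ± 1.37 and 1.03 ± 0.243 FPKM. Of the neighbours in that order, Cyp2c29 and Cyp3a25, Por and Nr1i3, and Cyp3a13 and Nr1i2 had overlapping libraries, and the other neighbours did not overlap. The vehicle order in the Gipr line differed in that Nr1i3 stood above Por, and the libraries of these genes overlapped. Across the groups the lower end of the order was the same, with Cyp3a13, Nr1i2, Ahr and Cyp2c55 in places 7 to 10 in all 6 groups. The upper end was not: in GiprSyn-/- livers Cyp2c29 stood first at 287 ± 42.7 FPKM, Cyp2c70 second at 243 ± 51.7 and Cyp3a11 next at 188 ± 49.95, with overlapping libraries between neighbours.

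**Figure D1:**
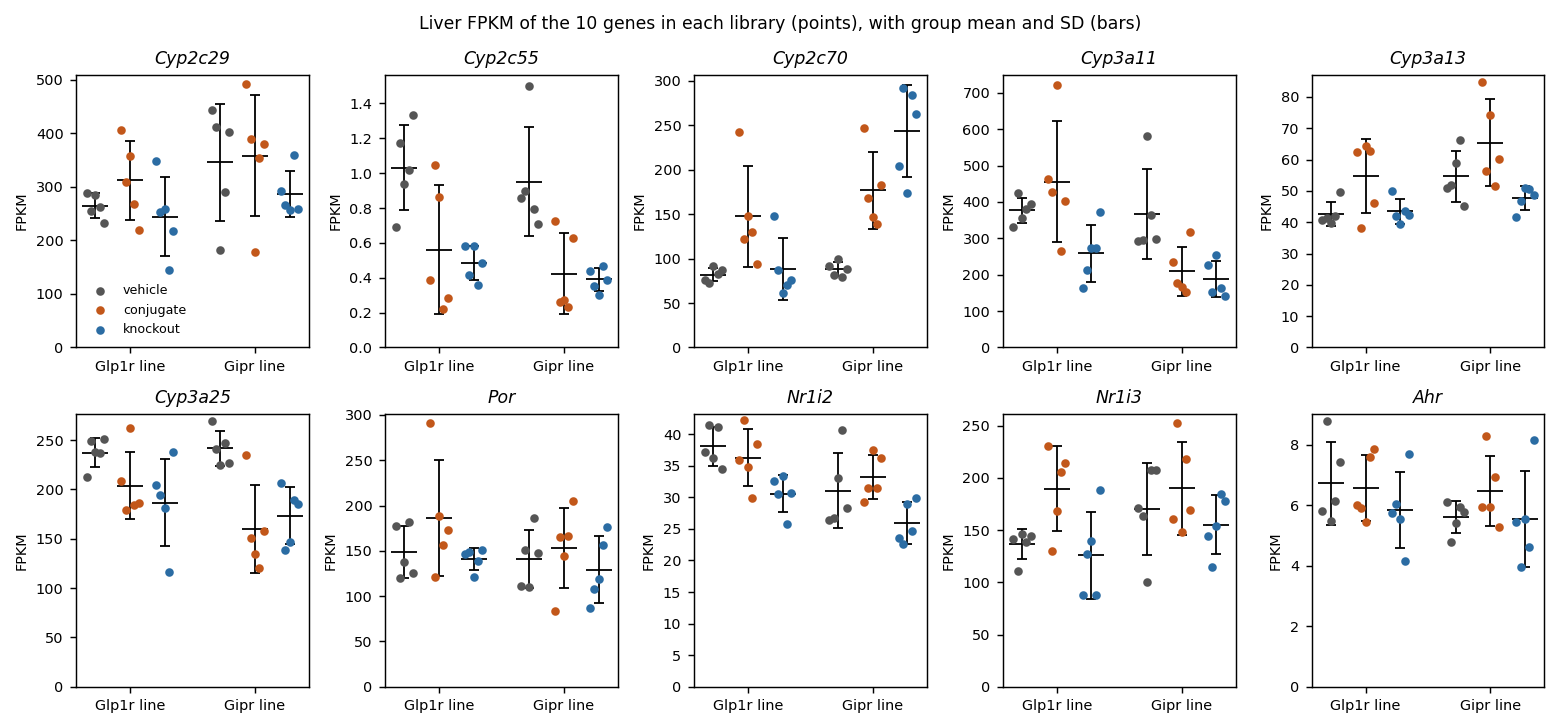
Liver FPKM of each of the 10 genes (vertical axes, each from 0) in the 30 libraries, by line and group; points are libraries, and black bars are the group mean and SD over 5 libraries. Cyp2c70 libraries lie higher with the conjugate and in the Syn knockout than with vehicle, and the Syn knockout libraries of Cyp3a11 and Cyp3a25 lie below vehicle, while their conjugate libraries in the Gipr line overlap it.

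Cyp2c70 was the one gene of the 9 tested that rose, and it did so in 3 of the 4 comparisons with vehicle, while the Cyp3a genes that passed the test fell. Of the 10 genes, 9 passed the filter of 1 FPKM in at least 5 of 15 libraries in each table, and Cyp2c55 did not. Calls rest on limma with p-values adjusted over all genes tested, at 0.05. The conjugate raised 1 of the 9 genes in the Glp1r line, where 10.4% of 10858 genes were called. In the Gipr line it raised 1 and lowered 1 of the 9, where 4.34% of 11201 genes were called. The Syn knockout had 1 gene higher and 1 lower, where 10.4% of genes were called. The Wnt1 knockout had no call among the 9 genes, as among all genes, where 0% were called by limma. There, 3 of the 9 genes and 1048 of 10858 genes had an unadjusted p under 0.05. The Syn knockout shifted the median of all genes by -0.11 on the log2 scale. Its called genes split into 161 higher and 999 lower, and into 281 higher and 436 lower after median-of-ratios scaling. The Syn knockout fold changes given here are not corrected for that shift. The conjugate in the Gipr line split into 131 higher and 355 lower, and into 166 and 278 after that scaling. These counts moved by more than 1.5 times when some single libraries were left out. In the Gipr line the 486 conjugate calls became 159 to 233 without vehicle replicate 2, 3 or 4 or conjugate replicate 2, 3 or 4, 308 without knockout replicate 4, and 1039 without conjugate replicate 5. The 1160 Syn knockout calls became 694 without knockout replicate 2, and 714 and 765 without vehicle replicates 3 and 4. In the Glp1r line the 1126 conjugate calls became 479 to 748 without vehicle replicate 2, 3, 4 or 5 or conjugate replicate 1 or 3. The Wnt1 knockout had up to 81 calls, without knockout replicate 5, none of them among the 9 genes.

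**Figure D2:**
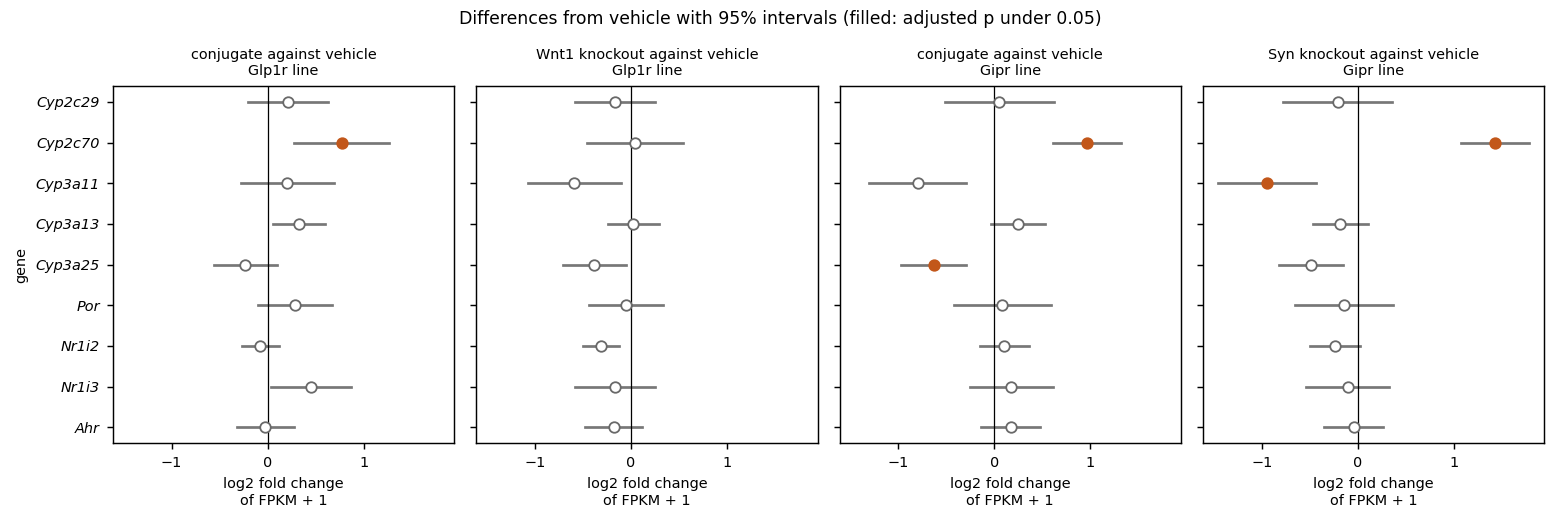
Log2 fold change of FPKM + 1 against the vehicle group of the same line (horizontal axes) for the 9 genes tested, in the 4 comparisons; points are limma estimates, lines are 95% intervals, and filled points passed an adjusted p of 0.05. Cyp2c70 is filled in 3 panels, Cyp3a25 in the panel of the conjugate in the Gipr line, and Cyp3a11 in the panel of the Syn knockout.

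Cyp2c70 is known in mice as the hepatic enzyme that makes muricholic acids, the rodent-specific bile acids. Its FPKM in Glp1rfl/fl vehicle livers was 75.7, 73.0, 91.5, 82.5 and 87.0 in replicates 1 to 5. With the conjugate it was 242, 122, 148, 130.4 and 93.9, and in Glp1rWnt1-/- livers 148, 86.7, 61.0, 70.2 and 76.4. Every conjugate library was above every vehicle library, though replicate 5 only just, and the knockout libraries overlapped vehicle, with replicate 1 far above the others. The log2 fold change was 0.77 ± 0.23, adjusted p = 0.0485 with the conjugate and 0.04 ± 0.23, adjusted p = 0.971 in the Wnt1 knockout (± SE, limma). The conjugate call was marginal. It was lost when any of the vehicle libraries, conjugate replicate 1, 3 or 4, or knockout replicate 2, 4 or 5 was left out (adjusted p 0.0532 to 0.11). It was also lost with no filter, with 2 of 3 other scalings, with robust empirical Bayes, and with a term for depth, pancreas or erythrocyte markers, where the fold change ran from 0.28 to 2.18 and adjusted p reached 0.539.

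Cyp2c70 also rose in the Gipr line. Cyp2c70 FPKM was 92.0, 81.8, 99.6, 79.3 and 88.4 in the vehicle libraries, 247, 168, 147, 138 and 183 with the conjugate, and 204, 291, 174, 284 and 263 in GiprSyn-/- livers. The vehicle libraries formed a tight group, and every conjugate and knockout library was above all of them, while conjugate and knockout overlapped. The log2 fold change was 0.97 ± 0.17, adjusted p = 0.00628 with the conjugate and 1.43 ± 0.17, adjusted p = 0.000136 in the Syn knockout. The knockout call held in all 15 alternatives and with each of the 15 libraries left out, with a fold change of 1.27 to 1.58. The conjugate call held with each library left out and in 14 of 15 alternatives. It was lost when the erythrocyte marker score was a term (0.84, adjusted p = 0.405), a fit in which 0 of 11201 genes were called.

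Cyp2c29, a murine epoxygenase of arachidonic acid and a known target of CAR, was among the most abundant of the 10 genes and passed no test. In the Glp1r line its FPKM was 288, 255, 285, 262 and 232 with vehicle, 406, 308, 358, 268 and 219 with the conjugate and 349, 253, 259, 144 and 217 in the knockout. Gipr-line FPKM was 444, 411, 181, 289.5 and 402 with vehicle, 492, 389, 178, 354 and 379 with the conjugate and 293, 266, 257, 359 and 258 in the knockout. Libraries overlapped in each comparison, and replicate 3 was the lowest of both the Giprfl/fl vehicle and the conjugate group. The log2 fold changes lay between -0.21 and 0.21 in the 4 comparisons, with adjusted p of 0.521 to 0.958. Their 95% intervals were wide, from -0.78 to 0.36 in the Syn knockout and from -0.52 to 0.62 with the conjugate in the Gipr line.

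Cyp2c55, an enzyme known to be induced through CAR and PXR and also expressed in intestine, stood at the detection edge of the filter. Its FPKM was 0.692, 1.17, 0.939, 1.02 and 1.34 in Glp1rfl/fl vehicle livers, 0.389, 1.05, 0.861, 0.223 and 0.282 with the conjugate and 0.583, 0.418, 0.582, 0.357 and 0.484 in Glp1rWnt1-/- livers. It was 0.856, 0.896, 1.5, 0.797 and 0.709 in Giprfl/fl vehicle livers, 0.727, 0.259, 0.273, 0.234 and 0.625 with the conjugate and 0.439, 0.352, 0.304, 0.468 and 0.389 in GiprSyn-/- livers. Both knockouts lay wholly below their vehicle libraries, and the conjugate groups overlapped vehicle, with conjugate replicates 2 and 3 of the Glp1r line and replicate 1 of the Gipr line within the vehicle range. In limma without the filter the log2 fold changes with the conjugate were -0.40 ± 0.14 (adjusted p = 0.155) in the Glp1r line and -0.46 ± 0.12 (adjusted p = 0.0933) in the Gipr line. They were -0.45 ± 0.14 (adjusted p = 0.55) in the Wnt1 knockout and -0.48 ± 0.12 (adjusted p = 0.0398) in the Syn knockout, where 3.42% of 29419 genes were called. With a pseudocount of 0.1 in place of 1 the Syn knockout gave -1.07 ± 0.28 and missed the threshold (adjusted p = 0.0506). Of 8 markers of small intestine, the sucrase gene Sis and Cdx1 were at 0 in all 30 libraries, and Fabp2, which liver also expresses, made up nearly all of the list's summed FPKM. That sum was 164 to 195 FPKM in Giprfl/fl vehicle, 81.9 to 183 with the conjugate and 80.6 to 98.7 in GiprSyn-/- livers. In the Glp1r line it was 169 to 215 FPKM with vehicle, 92.1 to 178 with the conjugate and 159 to 189.8 in the knockout.

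Cyp3a11, the main drug-oxidizing Cyp3a of mouse liver and the classical target of PXR, fell in the Syn knockout and passed no test elsewhere. Its FPKM in Giprfl/fl vehicle livers was 293, 295, 580.5, 364 and 299. With the conjugate it was 235, 177, 167, 153 and 317, and in GiprSyn-/- livers 227, 153, 254, 164 and 141. Vehicle replicate 3 stood far above the rest of its group. All knockout libraries were below all vehicle libraries, and with the conjugate replicate 5 alone reached the vehicle range. The log2 fold change was -0.94 ± 0.24, adjusted p = 0.0192 in the Syn knockout and -0.80 ± 0.24, adjusted p = 0.0708 with the conjugate. The knockout call was lost without vehicle replicate 3 (-0.76, adjusted p = 0.0525) and without knockout replicate 2 (-0.88, adjusted p = 0.0595). It was also lost with no filter (adjusted p = 0.0517), after median-of-ratios scaling (-0.80, adjusted p = 0.0771), after quantile normalization (-0.89, adjusted p = 0.0691) and with the erythrocyte term (-0.57, adjusted p = 0.335). The conjugate difference passed the threshold when conjugate replicate 5 was left out (-0.96, adjusted p = 0.0184), with array weights (-0.90, adjusted p = 0.0207) and with the pancreas score as a term (-0.81, adjusted p = 0.0486).

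In the Glp1r line, Cyp3a11 FPKM was 332, 424, 356, 380.1 and 394 with vehicle, 463, 428, 721, 265 and 404 with the conjugate and 163, 214, 274, 272 and 371 in the knockout. The conjugate libraries scattered on either side of a narrow vehicle group, replicate 3 highest and replicate 4 lowest, and in the knockout only replicate 5 lay within the vehicle range. Log2 fold changes were 0.20 ± 0.23, adjusted p = 0.598 with the conjugate and -0.59 ± 0.23, adjusted p = 0.406 in the Wnt1 knockout. With estimated depth as a term the conjugate value turned to -1.13. Depth did not overlap between these groups, so group and depth cannot be told apart in that fit, in which 0 of 10858 genes were called.

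Cyp3a25, a hepatic Cyp3a that lies beside Cyp3a11 in the RefSeq annotation, fell with the conjugate in the Gipr line. Its FPKM was 269, 241, 225, 247 and 227 in the vehicle libraries, 235, 150.4, 135, 120.4 and 158 with the conjugate and 207, 139, 147, 189.6 and 185 in GiprSyn-/- livers. Conjugate replicate 1 lay within the vehicle range and the other conjugate libraries below it, while all knockout libraries were below vehicle. The log2 fold change was -0.63 ± 0.16, adjusted p = 0.038 with the conjugate and -0.49 ± 0.16, adjusted p = 0.0622 in the Syn knockout. The conjugate call was lost when any vehicle library, conjugate replicate 2, 3 or 4, or knockout replicate 4 was left out (adjusted p 0.0526 to 0.107). It was also lost in 6 of 15 alternatives, among them no filter, median-of-ratios and quantile scaling and the erythrocyte term. The knockout difference, in turn, passed the threshold in 5 of 15 alternatives, and without conjugate replicate 1 (adjusted p = 0.012) or 4 (adjusted p = 0.0499), which enter the shared estimate of spread.

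The same gene gave 213, 249, 238, 236 and 251 FPKM in Glp1rfl/fl vehicle livers, 209, 179, 262, 184 and 186 with the conjugate and 204, 194, 181, 116 and 238 in Glp1rWnt1-/- livers. Conjugate replicate 3 was above all vehicle libraries, the other conjugate libraries were below the vehicle range, and knockout replicate 4 was the lowest of all. The log2 fold changes were -0.23 ± 0.15, adjusted p = 0.348 with the conjugate and -0.38 ± 0.15, adjusted p = 0.425 in the Wnt1 knockout.

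Cyp3a13, a Cyp3a of liver and intestine, passed no test. In the Glp1r line its FPKM was 40.8, 41.4, 39.8, 42.1 and 49.5 with vehicle, 62.4, 38.2, 64.4, 62.7 and 46.2 with the conjugate and 50.05, 42.0, 39.5, 43.7 and 42.4 in the knockout. Conjugate replicates 1, 3 and 4 were above all vehicle libraries and replicate 2 was below them. With the conjugate the log2 fold change was 0.33 ± 0.13, adjusted p = 0.107, and without replicate 2 it was 0.45 with an adjusted p of 0.0122. Gipr-line values were 50.8, 52.0, 59.0, 66.2 and 45.2 with vehicle, 84.8, 56.2, 74.3, 51.6 and 60.2 with the conjugate and 41.7, 46.8, 51.1, 50.8 and 48.7 in the knockout. The groups overlapped vehicle, with log2 fold changes of 0.24 ± 0.13, adjusted p = 0.332 for the conjugate and -0.18 ± 0.13, adjusted p = 0.455 for the Syn knockout.

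Set against each other within a library, Cyp2c70 and Cyp3a11 changed balance in the Gipr line. A ratio of this kind does not depend on how libraries are scaled. The ratio of Cyp2c70 to Cyp3a11 FPKM was 0.255 ± 0.0591 in Giprfl/fl vehicle livers, with a range of 0.172 to 0.314. With the conjugate it was 0.872 ± 0.177 and ranged from 0.578 to 1.05. In GiprSyn-/- livers it was 1.42 ± 0.580 and ranged from 0.684 to 1.91. Both of these groups lay wholly above vehicle, and in 3 of the 5 knockout libraries, replicates 2, 4 and 5, Cyp2c70 was the more abundant of the pair. The ratio in the Glp1r line was 0.219 ± 0.0305 with vehicle, 0.348 ± 0.149 with the conjugate and 0.401 ± 0.297 in the knockout, and the groups overlapped. The pair was chosen after the values were seen, so no test is given. The summed FPKM of the 6 enzymes was 1097 ± 48.1 in Giprfl/fl vehicle, 970.4 ± 234 with the conjugate and 939.6 ± 70.0 in GiprSyn-/- livers. Within that sum Cyp2c70 made up 8.03 ± 0.484% with vehicle, 18.3 ± 1.75% with the conjugate and 25.9 ± 5.47% in the knockout. Cyp3a11 made up 33.3 ± 10.3%, 21.7 ± 4.62% and 20.1 ± 5.79% in the same order.

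**Figure D3:**
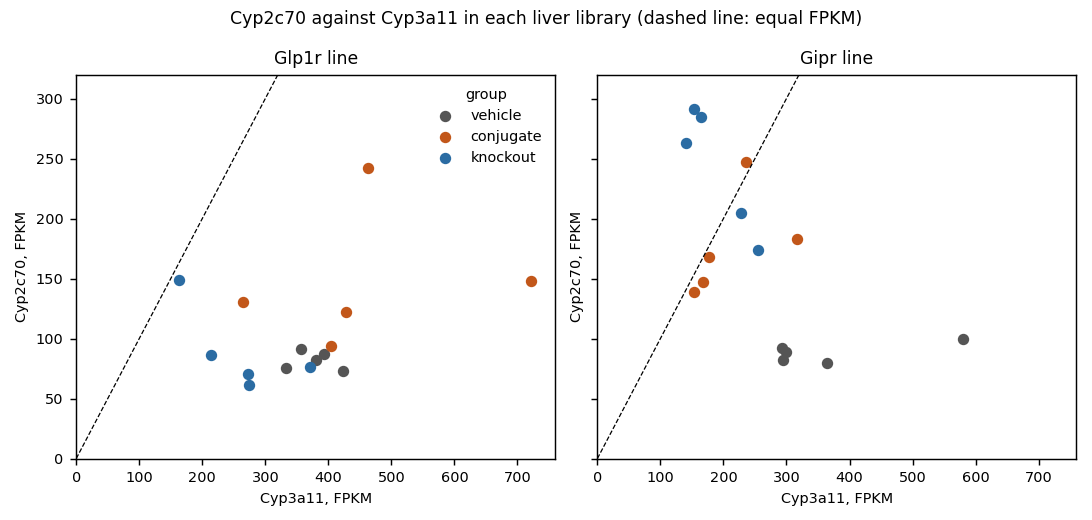
FPKM of Cyp2c70 (vertical axis) against Cyp3a11 (horizontal axis) in each liver library of the Glp1r line (left) and the Gipr line (right); each point is a library, colours are groups and the dashed line marks equal FPKM. Vehicle libraries lie at low Cyp2c70 in both lines, and the 5 knockout libraries of the Gipr line lie at Cyp2c70 levels of 174 FPKM or more.

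Por, the reductase on which all of these enzymes depend, passed the test in no comparison. Its FPKM was 177, 120.2, 137, 182 and 126 in Glp1rfl/fl vehicle livers, 291, 122, 189, 156 and 173 with the conjugate and 147, 148, 121, 139 and 151 in Glp1rWnt1-/- livers. In the other line it was 112, 151, 109.9, 187 and 148 with vehicle, 84.1, 165, 144, 166 and 205 with the conjugate and 86.6, 108, 119, 157 and 177 in GiprSyn-/- livers. The groups overlapped throughout, and conjugate replicate 1 gave the highest value in the Glp1r line and the lowest in the Gipr line. The log2 fold changes were 0.29 ± 0.18, adjusted p = 0.329 and 0.08 ± 0.24, adjusted p = 0.908 with the conjugate in the Glp1r and Gipr lines. They were -0.05 ± 0.18, adjusted p = 0.951 in the Wnt1 and -0.15 ± 0.24, adjusted p = 0.771 in the Syn knockout. The 95% intervals were -0.42 to 0.59 with the conjugate and -0.66 to 0.36 in the Syn knockout of the Gipr line.

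Nr1i2, which encodes PXR, passed no test. Its FPKM was 37.1, 41.5, 36.3, 41.2 and 34.5 in Glp1rfl/fl vehicle livers, 35.9, 42.2, 34.8, 29.9 and 38.4 with the conjugate and 32.7, 30.5, 33.3, 25.7 and 30.7 in Glp1rWnt1-/- livers. All knockout libraries were below all vehicle libraries, and the conjugate libraries overlapped vehicle. Fold changes on the log2 scale were -0.07 ± 0.09, adjusted p = 0.625 with the conjugate and -0.31 ± 0.09, adjusted p = 0.248 in the Wnt1 knockout, so the separation did not pass the test over all genes (unadjusted p = 0.0032). Values in the Gipr line were 26.4, 26.8, 33.1, 40.6 and 28.3 with vehicle, 29.2, 31.5, 37.4, 31.4 and 36.3 with the conjugate and 23.6, 22.6, 28.9, 24.6 and 29.9 in GiprSyn-/- livers. Vehicle replicate 4 was the highest of all and the groups overlapped, with log2 fold changes of 0.11 ± 0.12, adjusted p = 0.713 for the conjugate and -0.24 ± 0.12, adjusted p = 0.247 for the Syn knockout. The Syn knockout value passed the threshold when libraries were weighted by their quality (-0.33, adjusted p = 0.0378).

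Nr1i3, which encodes CAR, was more abundant than Nr1i2 in all 30 libraries. Its FPKM was 142, 111, 146, 138 and 145 in Glp1rfl/fl vehicle livers, 231, 130.2, 168, 206 and 214 with the conjugate and 87.8, 127, 139, 88.0 and 188 in Glp1rWnt1-/- livers. With the conjugate 4 of 5 libraries were above all vehicle libraries, and replicate 2 was within their range. Log2 fold changes were 0.45 ± 0.20, adjusted p = 0.151 with the conjugate and -0.17 ± 0.20, adjusted p = 0.831 in the Wnt1 knockout. The Gipr line gave 171, 163, 101, 208 and 208 with vehicle, 161, 253, 148, 218 and 169 with the conjugate and 145, 115, 154, 185 and 178 in GiprSyn-/- livers. The groups overlapped, and vehicle replicate 3, which had the highest Cyp3a11 of its group, had the lowest Nr1i3. The log2 fold changes were 0.18 ± 0.20, adjusted p = 0.716 for the conjugate and -0.11 ± 0.20, adjusted p = 0.812 for the Syn knockout. The mean ratio of Nr1i3 to Nr1i2 FPKM was 3.62 ± 0.611 and 5.61 ± 1.64 in the vehicle groups of the Glp1r and Gipr lines.

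Ahr was the least abundant of the sensors. Its FPKM was 5.81, 8.79, 5.47, 6.14 and 7.44 in Glp1rfl/fl vehicle livers, 6.02, 5.91, 5.46, 7.61 and 7.88 with the conjugate and 5.75, 6.03, 5.55, 4.17 and 7.71 in Glp1rWnt1-/- livers. It was, in the Gipr line, 6.10, 4.78, 5.42, 5.94 and 5.77 with vehicle, 5.94, 8.28, 5.96, 6.94 and 5.29 with the conjugate and 5.45, 3.96, 5.54, 4.61 and 8.17 in GiprSyn-/- livers. All groups overlapped, with log2 fold changes between -0.18 in the Wnt1 knockout and 0.17 with the conjugate in the Gipr line, and adjusted p of 0.574 to 0.931.

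Conjugate-treated and knockout livers, which differ in both genotype and treatment, were also compared directly. None of the 9 genes was called in either line by limma, where 5.04% of genes were called in the Glp1r line and 1.31% in the Gipr line. With 1 library left out the counts of all genes ran from 134 to 799 around 547 in the Glp1r line and from 53 to 554 around 147 in the Gipr line, lowest without conjugate replicate 3 and knockout replicate 2 and highest without knockout replicate 5 and conjugate replicate 1, respectively. In the Glp1r line 5 of the 9 genes, and 2562 of all 10858 genes tested, had an unadjusted p under 0.05 by limma. Cyp3a11 came nearest to a call, at 0.80 ± 0.23, adjusted p = 0.0561 (conjugate minus Wnt1 knockout). It passed the threshold in 5 of 13 alternatives, and without conjugate replicate 4 (adjusted p = 0.0217) or knockout replicate 5 (adjusted p = 0.0282). Its sign reversed with estimated depth as a term, a fit in which 0 of 10858 genes were called. Depth was 31.8 to 35.6 M with the conjugate and 44.3 to 52.8 M in the knockout, so group and depth cannot be told apart there. Cyp2c70 gave 0.73 ± 0.23, adjusted p = 0.0779 and Nr1i3 0.62 ± 0.20, adjusted p = 0.0745 in that comparison. Cyp2c70 passed the threshold without knockout replicate 1 (adjusted p = 0.0213). Nr1i3 passed it with array weights (adjusted p = 0.0423), with the erythrocyte term (adjusted p = 0.0371), and without conjugate replicate 2 (adjusted p = 0.035) or knockout replicate 5 (adjusted p = 0.0231). Of the 9 genes in the Gipr line, 3 had an unadjusted p under 0.05, as did 1717 of all 11201 genes tested. Cyp2c70 was -0.46 ± 0.17, adjusted p = 0.185 there, and it passed the threshold only without conjugate replicate 1 (-0.59, adjusted p = 0.0382). Cyp3a13 was 0.42 ± 0.13, adjusted p = 0.132, with every conjugate library above every knockout library, and Nr1i2 was 0.35 ± 0.12, adjusted p = 0.179.

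The conjugate effect was then compared between the lines with an interaction contrast over the 30 libraries. None of the 9 genes, and 0% of 11419 genes, were called by limma, while 1 of the 9 and 657 of all genes had an unadjusted p under 0.05. That gene was Cyp3a11, whose conjugate effect differed by -1.005 ± 0.34 (Gipr minus Glp1r line, 95% interval -1.71 to -0.30, unadjusted p = 0.00698, adjusted p = 0.837). For Cyp2c70 the difference was 0.20 ± 0.30, with an interval of -0.42 to 0.81 (adjusted p = 0.986). The lines differ in more than the floxed gene, since the tables were made separately and the pancreas transcripts were found in one of them, so a line difference and a table difference cannot be told apart.

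The other Cyp2c genes did not move as a block. Beside the counts for this and the following gene lists, the share of all genes called was 10.4% with the conjugate in the Glp1r line, 4.34% with it in the Gipr line, 10.4% in the Syn knockout and 0% in the Wnt1 knockout. Of 13 listed symbols 12 were in the tables, and 8 in the Glp1r and 9 in the Gipr line passed the filter. With the conjugate in the Glp1r line 2 rose and 2 fell, with a median log2 fold change of 0.256 beside 0.0126 for all genes tested. In the Gipr line 1 rose and 2 fell, with a median of 0.29 beside -0.0296. The Syn knockout had 1 higher and 4 lower, with a median of -0.103 beside -0.108, and the Wnt1 knockout had no call, with a median of -0.1 beside -0.0376. Cyp2c38 and Cyp2c39, neighbours whose RefSeq annotations overlap, fell in both conjugate comparisons and in the Syn knockout. Cyp2c38 averaged 29.0 ± 3.79 FPKM in Giprfl/fl vehicle livers, 13.8 ± 3.48 with the conjugate and 3.90 ± 1.29 in GiprSyn-/- livers, with log2 fold changes of -1.05 ± 0.20, adjusted p = 0.0132 and -2.65 ± 0.20, adjusted p = 6.05e-06. It averaged in the Glp1r line 32.5 ± 2.64 with vehicle and 19.1 ± 3.76 with the conjugate (-0.75 ± 0.18, adjusted p = 0.0197). Cyp2c39, a retinoic acid hydroxylase, was at 2.33 ± 0.451 FPKM in Giprfl/fl vehicle livers and fell by 1.11 with the conjugate and by 1.36 in the Syn knockout on the log2 scale, and by 0.66 with the conjugate in the Glp1r line (adjusted p = 0.00213, 2.53e-05 and 0.00657). In the Gipr line it averaged 0.553 FPKM with the conjugate and 0.296 in the knockout, so it passed the filter there through its vehicle libraries.

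Cyp2c54 rose with the conjugate in the Glp1r line, from 28.8 ± 18.8 to 77.0 ± 23.5 FPKM (1.64 ± 0.45, adjusted p = 0.0333), with overlapping libraries. In the Gipr line its difference of 1.61 ± 0.57, adjusted p = 0.124 did not pass. Cyp2c23, an arachidonic acid epoxygenase, rose with the conjugate in the Gipr line from 113 ± 30.7 to 199.8 ± 45.7 FPKM (0.83 ± 0.19, adjusted p = 0.0297), with every conjugate library above vehicle. Named after the values were seen, Cyp2c23 also rose with the conjugate in the Glp1r line (0.55 ± 0.14, adjusted p = 0.0214) and in the Syn knockout (0.66 ± 0.19, adjusted p = 0.042). Cyp2c68 fell in the Syn knockout from 83.0 ± 9.45 to 46.5 ± 9.81 FPKM (-0.84 ± 0.13, adjusted p = 0.000822), as did Cyp2c67, also named after its values were seen (-0.60 ± 0.17, adjusted p = 0.0299). Of the 6 other Cyp3a genes listed only Cyp3a59, the neighbour of Cyp3a25 in RefSeq, passed the filter. It fell in the Gipr line from 12.5 ± 3.02 to 3.49 ± 1.99 FPKM with the conjugate (-1.68 ± 0.31, adjusted p = 0.00973) and to 5.58 ± 2.82 in the Syn knockout (-1.11 ± 0.31, adjusted p = 0.0314). Genes of these clusters are similar in sequence, and RSEM divides reads that fit several of them by estimate, so the share of each close relative is uncertain.

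**Figure D4:**
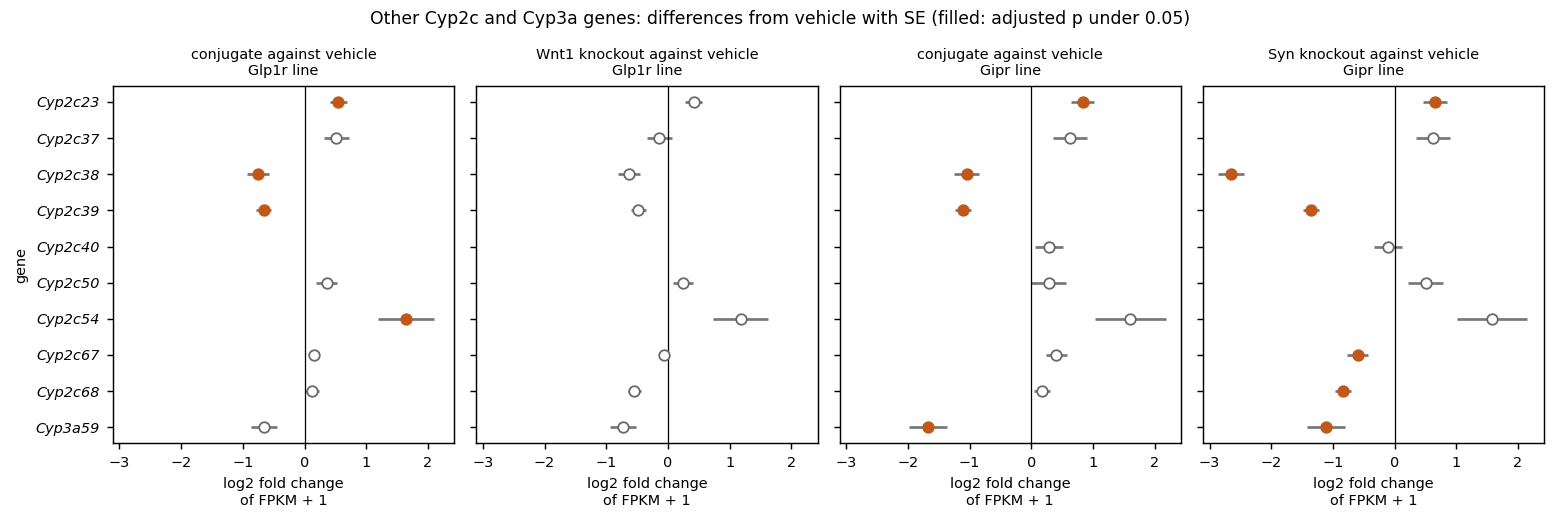
Log2 fold change of FPKM + 1 against vehicle (horizontal axes) for the 10 other Cyp2c and Cyp3a genes that passed the filter in at least 1 table, in the 4 comparisons; points are limma estimates, lines are SE, and filled points passed an adjusted p of 0.05. Cyp2c38 and Cyp2c39 lie left of 0 and Cyp2c23 and Cyp2c54 right of 0 in all panels, and no point is filled in the panel of the Wnt1 knockout.

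Among 8 other genes of electron supply and heme, all of which passed the filter, 3 fell with the conjugate in the Glp1r line, none in the Gipr line, and 4 fell in the Syn knockout. Medians were -0.352, -0.281 and -0.483 in that order, beside 0.0126, -0.0296 and -0.108 for all genes, and the Wnt1 knockout had no call and a median of -0.114. Cyb5b, an outer mitochondrial cytochrome b5, fell from 113 ± 7.04 to 84.0 ± 10.7 FPKM with the conjugate in the Glp1r line (-0.43 ± 0.08, adjusted p = 0.00764) and by 0.53 in the Syn knockout (adjusted p = 0.00152). Pgrmc2, a heme-binding membrane protein, fell from 23.9 ± 1.75 to 12.7 ± 1.24 FPKM in the Syn knockout (-0.86 ± 0.11, adjusted p = 0.000316) and by 0.41 with the conjugate in the Glp1r line (adjusted p = 0.0344). Its relative Pgrmc1 fell in the Glp1r line (-0.24 ± 0.06, adjusted p = 0.0201) and, named after its value was seen, in the Syn knockout (-0.43 ± 0.12, adjusted p = 0.0347). Cyb5r3, the reductase of cytochrome b5, fell in the Syn knockout (-0.55 ± 0.12, adjusted p = 0.0109).

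Among 18 receptor partners and hepatocyte transcription factors, 2 passed the test. They were the RXR genes Rxra and Rxrb, with the conjugate in the Glp1r line, by 0.17 ± 0.05, adjusted p = 0.039 and 0.21 ± 0.06, adjusted p = 0.0324. That count is near the 10.4% called among all genes. Rxra lost its call in 5 of 13 alternatives and 10 of 15 fits with a library left out, and Rxrb in 2 of 13 and 6 of 15. With estimated depth as a term Rxrb turned to -0.16. No gene of that list was called in the other comparisons.

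Known targets of CAR and PXR moved in both directions. Of 20 listed, 17 in the Glp1r and 16 in the Gipr line were tested. With the conjugate 2 rose and 4 fell in the Glp1r line (median -0.264), and 1 rose and 4 fell in the Gipr line (median -0.409). In the Syn knockout 3 rose and 8 fell (median -0.517), and in the Wnt1 knockout none was called (median -0.232). The medians of all genes are those given above. Gsta1, an inducible glutathione transferase, fell in 3 comparisons, from 16.3 ± 14.1 to 1.62 ± 1.10 FPKM with the conjugate in the Glp1r line (-2.43 ± 0.52, adjusted p = 0.0124) and from 15.7 ± 10.7 to 2.25 ± 2.70 in the Gipr line (-2.51 ± 0.54, adjusted p = 0.0195). In the Syn knockout it was 1.40 ± 1.94 (-2.88 ± 0.54, adjusted p = 0.00334). Cyp2b9 fell in the Syn knockout from 147 ± 40.4 to 23.6 ± 13.4 FPKM (-2.74 ± 0.58, adjusted p = 0.0076), and Sult1e1, the estrogen sulfotransferase, rose from 0.299 ± 0.114 to 7.03 ± 4.57 (2.37 ± 0.36, adjusted p = 0.000635).

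Further calls in that list were of smaller size. Ces2c (-0.94 ± 0.25, adjusted p = 0.0316) and Gstm1 (-0.76 ± 0.20, adjusted p = 0.0269) fell with the conjugate in the Glp1r line. Also in the Gipr line, Abcb1a, an efflux pump (-0.79 ± 0.20, adjusted p = 0.0431), and Aldh1a1, a retinal dehydrogenase (-0.77 ± 0.19, adjusted p = 0.0371), fell with the conjugate. Named after their values were seen, Ces2a (0.61 ± 0.13, adjusted p = 0.0117) and Sult2a8 (0.74 ± 0.15, adjusted p = 0.00982) rose and Aldh1a1 (-0.49 ± 0.12, adjusted p = 0.0221) fell with the conjugate in the Glp1r line. Named in the same way, Ces2a rose (0.42 ± 0.11, adjusted p = 0.0473) and Abcc3 fell (-0.57 ± 0.11, adjusted p = 0.0139) with the conjugate in the Gipr line. Ces2a (0.86 ± 0.11, adjusted p = 0.000297) and Ces2c (1.06 ± 0.29, adjusted p = 0.0297) rose in the Syn knockout. The other 6 of the 8 that fell there, named after their values were seen, were Abcb1a (-1.36), Slco1a4 (-1.25), Gstm1 (-0.95), Aldh1a1 (-0.86), Abcc3 (-0.64) and Ugt1a1 (-0.39, the highest adjusted p of the 6 at 0.0209), on the log2 scale.

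Of 9 targets of AHR, 5 were tested. Nqo1, a quinone reductase, fell in 3 comparisons, by 0.81 with the conjugate in the Glp1r line (adjusted p = 0.0131), by 0.86 in the Gipr line (adjusted p = 0.0465) and by 1.31 in the Syn knockout (adjusted p = 0.0019). Nfe2l2, the regulator NRF2, fell with the conjugate in the Gipr line (-0.37 ± 0.10, adjusted p = 0.0485) and in the Syn knockout (-0.61 ± 0.10, adjusted p = 0.00132), where Ugt1a6a, named after its value was seen, fell too (-0.33 ± 0.09, adjusted p = 0.0213). With the conjugate in the Gipr line the Nfe2l2 call was lost in 12 of 15 alternatives and 13 of 15 fits with a library left out, and the Nqo1 call in 8 and 11 of them. Cyp1a2, a hepatic enzyme known as an AHR target, went the other way in the Syn knockout, from 111 ± 34.6 to 393 ± 78.9 FPKM (1.86 ± 0.21, adjusted p = 0.000131), with every knockout library above vehicle. The counts were 0 higher and 1 lower with the conjugate in the Glp1r line, 0 and 2 in the Gipr line, and 1 and 3 in the Syn knockout. The medians were -0.203, -0.313 and -0.334, and in the Wnt1 knockout no target was called and the median was -0.0568.

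Of 20 genes of conjugation and hydrolysis, all tested, 3 fell with the conjugate in the Glp1r line, 2 fell in the Gipr line, and 6 fell and 1 rose in the Syn knockout, beside 10.4%, 4.34% and 10.4% called among all genes. The medians were -0.0704, -0.0988 and -0.14, and the Wnt1 knockout had no call and a median of -0.0624. Ephx1, microsomal epoxide hydrolase, fell with the conjugate from 252 ± 23.8 to 142 ± 14.97 FPKM in the Gipr line (-0.82 ± 0.11, adjusted p = 0.00213) and by 0.57 in the Glp1r line (adjusted p = 0.0409). Ugt1a9 fell from 20.6 ± 5.17 to 6.62 ± 2.30 FPKM with the conjugate (-1.53 ± 0.23, adjusted p = 0.00352) and to 4.48 ± 1.16 in the Syn knockout (-1.97 ± 0.23, adjusted p = 0.000155). Ugt1a5 fell in the Syn knockout (-2.27 ± 0.30, adjusted p = 0.000297) and with the conjugate in the Glp1r line (-1.12 ± 0.33, adjusted p = 0.0462). Tpmt, which methylates thiopurines, fell in the Glp1r line (-0.30 ± 0.08, adjusted p = 0.0353), and Sult1c2, a sulfotransferase, fell in the Syn knockout (-0.86 ± 0.14, adjusted p = 0.00136). Ugt2b1, named after its value was seen, rose in the Syn knockout (0.68 ± 0.17, adjusted p = 0.0184). The Ugt1a genes share their last exons, so their separate FPKM are uncertain. Of the 42 pathway calls that the naming rule gave in these lists, 11 held in every fit that tested the gene, and all 11 were in the Syn knockout. Among the 11, Cyp2c39 and Sult1e1 were tested in only 10 of 15 fits with a library left out. Cyp2c39 averaged 2.33 FPKM with vehicle and 0.296 in the knockout, and Sult1e1 averaged 0.299 and 7.03. Whether these genes passed the filter was thus tied to the difference tested, and their record over the fits adds little. The erythrocyte term ended 29 of the 42, among them all of the calls for the conjugate in the Gipr line. Among all genes that term took the calls from 486 to 0 in this comparison. It took them from 1126 to 257 with the conjugate in the Glp1r line and from 1160 to 313 in the Syn knockout. These losses are thus not particular to the listed genes. Group and erythrocyte score can hardly be told apart in these comparisons, and the cause of the losses was not tested.

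The genes most like each of the 10 were sought among 10009 genes tested in both tables, by Pearson r of log2(FPKM + 1), centred on each table's mean, over the 30 liver libraries. These libraries share treatments, tables and depth, and the values describe likeness only. Nr1i3 was most like Tomm40l, with an r of 0.967, followed by Chd3 at 0.806 and Rnf43 at 0.791. Tomm40l overlaps Nr1i3 in the RefSeq annotation, so reads from their shared part may count for either. Cyp3a25 was most like its neighbour Cyp3a59, at 0.879, and Iyd was also among its nearest genes, at 0.780. For Cyp2c70 they were Cps1 at 0.840, Cfhr4 at 0.810 and Hsd3b3 at 0.802, and Cps1 is one of the hepatocyte markers used here. For Cyp3a11 they were Bckdhb at 0.785, Cyp2b13 at 0.773 and Wfdc2 at 0.757.

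Cyp2c29 was most like Pipox at 0.754, Car8 at 0.754 and Cdo1 at 0.727. Cyp2c55, itself outside the filter, was most like Nt5e at 0.850, Slc17a4 at 0.833 and Gckr at 0.831. Cyp3a13 was most like Cd302 at 0.828, Snw1 at 0.786 and Usp16 at 0.761. Among the genes nearest to Por were Kxd1 at 0.792 and Brf1 at 0.785. Nr1i2 was most like St3gal5 at 0.827, Eif2ak4 at 0.806 and Sdhd at 0.778. Ahr had the lowest likeness to its nearest genes, with Tent5a at 0.677, Phf11c at 0.654 and Arhgef3 at 0.653.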

How the data were processed

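Bulk RNA of 30 livers was measured in 6 groups of 5, in 2 tables. The libraries were stranded poly(A) libraries, per the labels. The authors deposited FPKM, computed with RSEM per the submitters' processing notes. Not given in the sources used here were the RSEM version, strand setting, aligner, genome build and annotation. Sequences and neighbours from RefSeq (GRCm38.p6) therefore serve as description only. RSEM estimates how reads shared by similar genes divide among them.

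From the deposited FPKM, log2(FPKM + 1) was fitted with limma 3.58.1 in R 4.3.3, with a mean-variance trend, 1 mean per group, and all 3 groups of a table in the fit. Genes with at least 1 FPKM in at least 5 of 15 libraries were tested, and p-values were adjusted by Benjamini-Hochberg over all of them (two-sided, threshold 0.05). The pseudocount damps fold changes of low genes. The interaction contrast used all 30 libraries. Errors are SE of the model for fold changes and SD over 5 libraries for FPKM. Depth and marker scores were compared by exact permutation over 252 assignments. Figures were drawn with matplotlib 3.10.9. The fit was checked on simulated data. No pair of libraries held identical values. The pathway genes named are, per list and comparison with vehicle, up to 3 called genes with the largest absolute fold change. Alternatives comprised pseudocount, filter, scaling, replicate block, weights, technical terms and leaving out each library. The genes, lists and tests were chosen with earlier results of these data known. For each of the 10 genes the 3 genes most like it were sought, and 2 of these are not reported here. The adipose tables are not used here.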

Additional observations from a re-analysis of the deposited data

Results flagged for a closer look

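In each of 60 groups of 5 libraries (10 genes in 6 groups), the highest and lowest FPKM were set against the rest of the group. A library is listed where its gap to the nearest library exceeded 0.71 of the group's range, which chance alone gives in about 1 in 20 groups. There were 4 such values, and all were in vehicle groups.

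In Giprfl/fl vehicle replicate 3, Cyp3a11 stood at 580.5 FPKM, against 293 to 364 FPKM in the other 4 libraries. The same library had the highest Cyp2c55 of its group, 1.5 FPKM against 0.709 to 0.896. Its 6 markers of pericentral hepatocytes, those near the central vein, summed to 3507 FPKM, against 5785 to 6644 in the rest of its group. Its 6 periportal markers summed to 1515 FPKM, within the group's range of 1340 to 1618. The part of these markers in its Cyp3a11 value was not tested. In Glp1rfl/fl vehicle replicate 2, Nr1i3 was lowest at 111 FPKM, against 138 to 146 FPKM. In Glp1rfl/fl vehicle replicate 5, Cyp3a13 was highest at 49.5 FPKM, against 39.8 to 42.1 FPKM. Without Giprfl/fl vehicle replicate 3 the Cyp3a11 difference in the Syn knockout was -0.76 with an adjusted p of 0.0525.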

How the results depend on the processing

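The counts of genes called among the 9 tested were small, and several turned on the processing. With the conjugate in the Glp1r line the count fell from 1 to 0 with no filter, median-of-ratios scaling, a common sum of FPKM, robust empirical Bayes, and a term for depth, pancreas or erythrocyte score, and was 2 with array weights. In the Gipr line it fell from 2 to 1 with no filter, median-of-ratios scaling, quantile normalization, only the groups compared or the main series of library numbers (chosen after seeing the data), and to 0 with the erythrocyte term, and it was 3 with array weights or the pancreas term. In the Syn knockout it was 1 with no filter, median-of-ratios scaling, quantile normalization or the erythrocyte term, and 4 with array weights. Without the filter Cyp2c55, which is not one of the 9, was called there too. The count was 3 in the Syn knockout with a common sum, the replicate block, only the groups compared or the series term. The calls among all genes moved too. With array weights they were 3333 in the Syn knockout, against 1160 in the main fit. They were 1333 against 486 with the conjugate in the Gipr line and 1676 against 1126 in the Glp1r line. Between conjugate and knockout it rose from 0, to 1 in the Glp1r line with a filter at 5 FPKM, a common sum or the pancreas term and to 2 with array weights or the erythrocyte term, and to 1 in the Gipr line with array weights, the pancreas term or a term for library number series. Leaving out each library gave 0 to 2 (conjugate, Glp1r line), 1 to 3 (conjugate, Gipr line), 1 to 3 (Syn knockout), and 0 to 2 and 0 to 1 for conjugate against knockout in the Glp1r and Gipr lines. The cause of these changes was not tested.

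Reversals of log2 fold change were all of values that had passed no test, except Rxrb. With median-of-ratios scaling the Syn knockout gave Por 0.0011, Nr1i3 0.043 and Ahr 0.083, and with quantile normalization Nr1i3 0.013 and Ahr 0.087. With a common sum the Wnt1 knockout gave Cyp2c70 -0.012 and Cyp3a13 -0.029. Array weights gave Ahr 0.053 (conjugate, Glp1r line), Cyp2c70 -0.048 (Wnt1 knockout) and Cyp3a11 -0.073 (conjugate against knockout, Gipr line). With the depth term the conjugate in the Glp1r line gave Cyp3a11 -1.13, Cyp3a25 0.16, Nr1i2 0.20, Ahr 0.16 and Rxrb -0.16, conjugate against knockout gave Cyp3a11 -0.43, and the difference between lines gave Cyp2c70 -0.078. The pancreas term gave Por 0.0010 (Wnt1 knockout), Nr1i3 0.059 and Ahr 0.0033 (Syn knockout). The erythrocyte term gave Cyp2c29 -0.092 and Ahr 0.20 (conjugate, Glp1r line), Cyp2c29 -0.11, Cyp3a13 -0.025 and Nr1i3 -0.057 (conjugate, Gipr line) and Por 0.075 (Syn knockout). For the conjugate in the Gipr line the series term gave Cyp2c29 -0.00024 and the main series alone Por -0.11. Leaving out each library spanned 0 for Ahr (-0.084 to 0.065; conjugate, Glp1r line), for Cyp2c29 (-0.31 to 0.0097), Cyp2c70 (-0.16 to 0.16), Cyp3a13 (-0.025 to 0.079) and Por (-0.13 to 0.023) in the Wnt1 knockout, and for Cyp2c29 (-0.16 to 0.28), Por (-0.035 to 0.28) and Nr1i3 (-0.0015 to 0.26) with the conjugate in the Gipr line. It also did so for Ahr in the Syn knockout (-0.17 to 0.052), Cyp3a25 (-0.010 to 0.25, Glp1r line) and Cyp3a11 (-0.017 to 0.26, Gipr line) in conjugate against knockout, and Cyp2c29 between lines (-0.37 to 0.074).

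The labels number replicates 1 to 5 in each group, and no label says that a number marks a shared source. Deviations of same-numbered libraries correlated at -0.484 to 0.454, over 0.1 in 1 to 3 of 5 pairs between any 2 groups of a line, so the numbers were not taken as pairs. The replicate block added Cyp3a25 in the Syn knockout (-0.49, adjusted p = 0.029), giving 3 called genes of 9 there. Library numbers in the Gipr line fall into 2 series. The later one holds only vehicle replicate 5 and conjugate replicates 4 and 5 and no knockout library, so it is unbalanced over the groups. The series term could not be fitted in the Glp1r table, which holds 1 series. Cyp2c55, near 1 FPKM or less, had the lowest level of the 10 genes; how far depth limits its precision was not tested.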
